A study of Canis lupus familiaris with 32 samples.

Results

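ENSCAFG00000000001 is 1 of the 24580 dog genes listed in a study of soft tissues of the hip, and it was followed over all 32 libraries. It was chosen from measured values, as a gene abundant in postnatal ligament and low in embryonic hip. Its levels and every comparison with embryonic hip are therefore given as a description, without a test. The reference table used here pairs none of the gene IDs with a symbol (0 matched), so no name or function is given to this gene or to any other.

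The teres ligament is a short band of dense connective tissue within the hip joint that ties the head of the femur to its socket. The capsule is a fibrous envelope enclosing the same joint, lined on its inner face by synovium. Both hold fibroblasts in a collagen-rich matrix, and both restrain the femoral head, whose fit in the socket is loose in developmental dysplasia of the hip. The embryonic hip is a mixed sample in which the parts of the joint are still forming.

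Total RNA with ribosomal RNA removed was sequenced from 25 dogs, of which 7 gave both tissues. Ligament came from 7 dogs affected by hip dysplasia (4 adults and 3 aged 4 months), 3 adult control dogs and 4 young dogs under 1 month of age. Capsule came from 4 affected dogs (1 adult and 3 aged 4 months), 5 adult controls and 6 young dogs under 1 month. Whole hips of 3 embryos made the seventh group. No genotype, breed or treatment is given in the labels used here, and the young dogs are not labelled as affected or control. The tissue labels could not be checked against marker genes because the reference table used here paired no ID with a symbol. Library totals ran from 2857235 to 9895143 fragments. Each library correlated at r = 0.924 to 0.983 with the mean of the others of its group, across genes in log2 CPM. The gene had between 436 and 8733 fragments per library, so that counting error alone was 4.79% at the lowest and 1.07% at the highest.

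The gene stood high in every postnatal library and low in every embryonic one. Levels are given as CPM, fragment counts relative to a library total that was scaled by TMM, a correction for differences in composition between libraries. In the affected ligaments it ran from 588 to 1130 CPM with a median of 745 CPM. Control ligaments had 671, 1270 and 595 CPM, and young ligaments had 1390, 1030, 1480 and 1550 CPM. The embryonic hips had 71.4, 70 and 58.1 CPM. The lowest of the 29 postnatal libraries was 5.92 times the highest embryonic one.

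In capsule the gene was somewhat less abundant. Affected capsules had 484 CPM in the adult and 786, 423 and 714 CPM in the dogs aged 4 months. Control capsules had 915, 735, 583, 510 and 590 CPM. Young capsules ran from 519 to 1070 CPM, with a median of 626 CPM. The 3 capsule groups covered much the same range, and all of their libraries lay far above those of the embryos. Of the 8 postnatal libraries above 1000 CPM, 7 were ligaments and 1 was a young capsule.

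**Figure D1:**
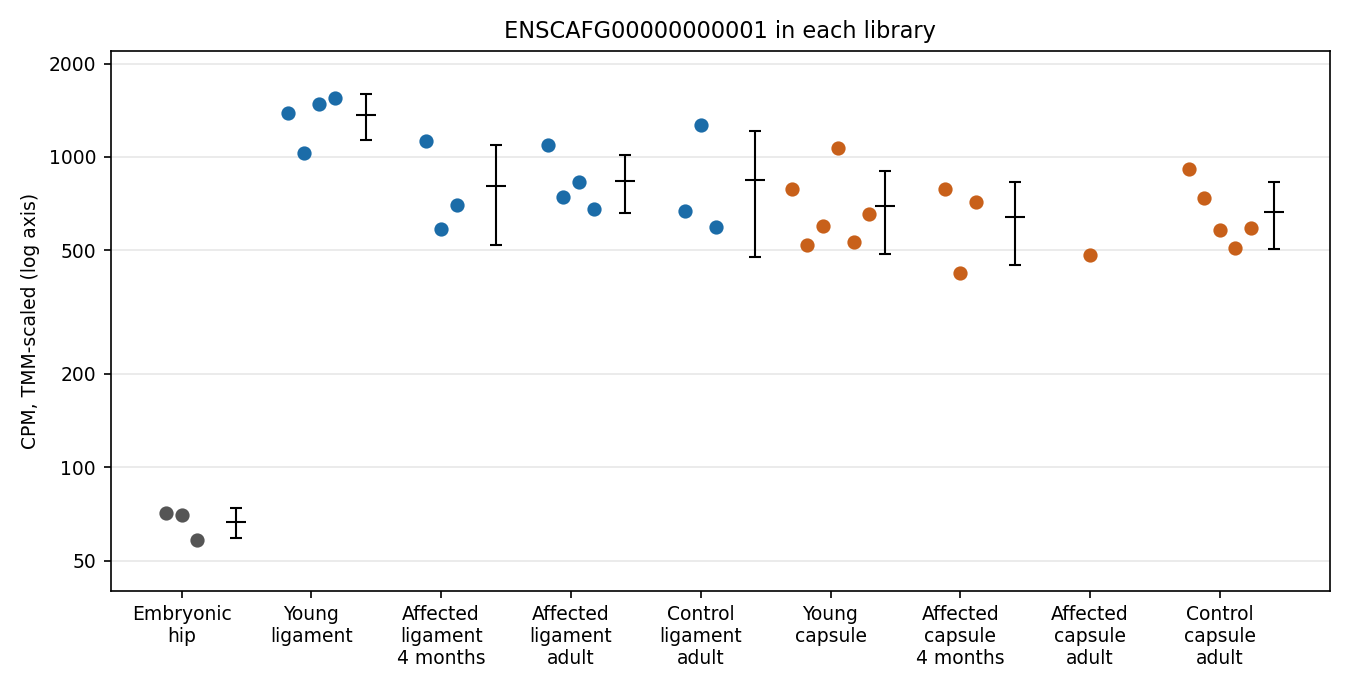
Level of ENSCAFG00000000001 in each library, in TMM-scaled CPM on a log axis, with ligament in blue, capsule in orange and embryonic hip in grey. Bars to the right of the points give mean ± SD where a group has more than 1 library. The postnatal libraries lie between 423 and 1550 CPM and the 3 embryonic ones between 58.1 and 71.4 CPM.

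By group mean the order was young ligament (1360 ± 232 CPM, SD, n = 4), control ligament (845 ± 370 CPM, n = 3), affected ligament (823 ± 207 CPM, n = 7), young capsule (694 ± 210 CPM, n = 6), control capsule (667 ± 161 CPM, n = 5), affected capsule (602 ± 175 CPM, n = 4) and embryonic hip (66.5 ± 7.33 CPM, n = 3). From control ligament down to affected capsule, each group differed from the next by less than the SD of either. Young ligament exceeded control ligament by 519 CPM, more than either SD, but the 2 ranges overlapped through control replicate 2 at 1270 CPM. Embryonic hip was the only group with no overlap with its neighbour in this order.

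Set against the embryonic mean, affected and control ligaments were 12.4 and 12.7 times higher, and young ligaments 20.5 times. Affected, control and young capsules were 9.05, 10 and 10.4 times higher than embryonic hip. Composition differed as well. The 10 most abundant genes took 12.9% to 33% of the fragments in postnatal libraries, against 12% to 12.8% in embryonic ones, and the TMM factors were 0.776 to 1.26 in postnatal libraries and 1.26 to 1.35 in embryonic ones. On library totals without that scaling, young ligaments were 14.2 times and affected capsules 6.73 times higher than embryonic hip. The part of composition in these ratios was not tested beyond that scaling. In whole tissue, fewer cells of a type and less RNA per cell cannot be told apart, and age and sampled tissue differ together between embryonic hip and the other groups.

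Per unit of transcript length, as the authors' FPKM, the gene ranked among the more abundant ones after birth. It stood at 112 ± 27.5 FPKM in affected ligaments (SD, n = 7), 110 ± 46.3 FPKM in control ligaments (n = 3) and 176 ± 29 FPKM in young ligaments (n = 4), against 8.79 ± 0.845 FPKM in embryonic hip (n = 3). By FPKM its rank among all 24580 listed genes was 312 to 773 in ligaments and 454 to 1281 in capsules, against 7209 to 8161 in embryonic hip. Not all listed genes were detected. Those with FPKM above 0 numbered 15072 to 16277 in postnatal libraries and 16532 to 16832 in embryonic ones. The rank rests on lengths and scaling set by the authors.

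Many genes lay lower in every embryonic library than in any postnatal one. Fewer also had as large a gap and were as even after birth. Of 14345 genes that passed the filter on low counts, 1247 (8.69%) had every postnatal library above every embryonic one. Among these, 127 had a ratio of the mean of the 6 postnatal groups to the embryonic mean at least as large as the 12.4 of ENSCAFG00000000001, counting that gene (0.5 CPM added to both). Across the postnatal groups the highest mean of ENSCAFG00000000001 was 2.27 times the lowest, where the median of those 127 genes was 4.58. Of the 127, 21 were as even as this or more so, and 12 had a postnatal mean at least as high in CPM, again with the gene itself included. These counts describe the pattern for which the gene was chosen, and evenness was not compared at matched abundance.

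The case and control comparison asked whether the gene differed in dysplastic hips. In capsule, the level in affected dogs was 0.912-fold that of controls, with a 95% interval of 0.601 to 1.39 (log2 fold change -0.13, SE 0.28, edgeR adjusted p = 1), in a comparison that called 0.236% of 12718 genes. The affected range of 423 to 786 CPM overlapped most of the control range of 510 to 915 CPM. All controls were adult and 3 of the 4 affected dogs were 4 months old. With age class held fixed, which leaves the disease term to the 1 adult affected capsule at 484 CPM, the log2 fold change was -0.43 (SE 0.46). The single library has no spread of its own and is assumed to vary like the others, so this is a value without a replicate check. Across settings, that fit included, the p adjusted over all genes ran from 0.89 to 1.

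In ligament, the affected and control means lay closer still. The fold of all affected over control ligaments was 1, with an interval of 0.645 to 1.55 (SE 0.29 on the log2 scale, edgeR adjusted p = 1). Between adult affected ligaments, at 1090, 745, 831 and 682 CPM, and adult controls, at 671, 1270 and 595 CPM, the fold was 1.03, with an interval of 0.65 to 1.62 (log2 fold change 0.04, SE 0.3, edgeR adjusted p = 0.95). The highest adult library was a control and the lowest was a control too. Neither comparison called any gene with edgeR (0%), although the unadjusted p was under 0.05 for 1058 and 2374 genes, and DESeq2 called 11 and 85. Without control replicate 3 edgeR called 1850 genes between the adult ligaments, and with the replicate number as a block 260 and 212. Control ligaments had the largest SD of any group. Without control replicate 2 the log2 fold changes were 0.4 and 0.43 (edgeR adjusted p = 0.95 and 0.57).

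The disease effect did not differ detectably between the tissues. The ratio of the effect in ligament to that in capsule was 1.09, with an interval of 0.612 to 1.94 (interaction log2 0.12, SE 0.4, edgeR adjusted p = 1). This interaction called 0% of 13606 genes with edgeR and none with DESeq2, with 290 at an unadjusted p under 0.05. Libraries were treated as independent there, although 4 of the dogs gave both tissues. With the dog as a random block in limma voom, the interaction was 0.16 on the log2 scale (adjusted p = 1). The age mix differed as well, since 3 of 4 affected capsules but 3 of 7 affected ligaments came from dogs aged 4 months, and all controls were adult. Without the dogs aged 4 months, which leaves 1 affected capsule, the edgeR interaction was 0.45 on the log2 scale. Age and disease were therefore not separated in this comparison.

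**Figure D2:**
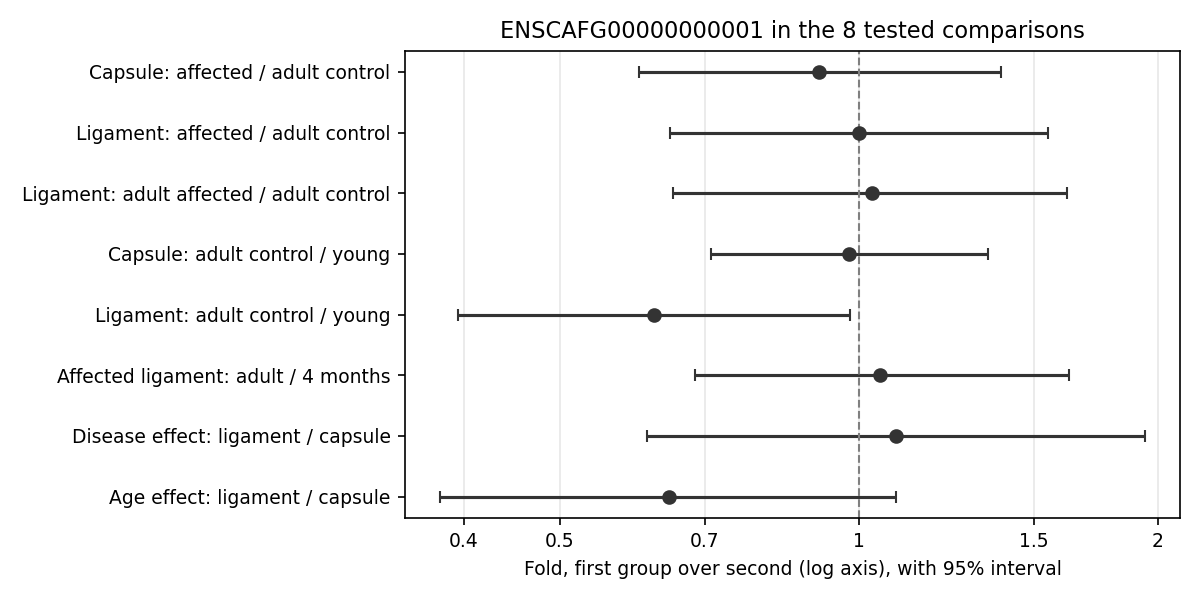
Fold of ENSCAFG00000000001 in the 8 tested comparisons (first group over second, log axis), with 95% intervals from edgeR. The last pair of points are ratios of folds between tissues. The interval of adult control over young ligament, 0.395 to 0.979, lies below 1, but its p did not pass after adjustment over all genes, and the other 7 intervals include 1.

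The age comparison asked how the level in adult controls compared with that in dogs under 1 month, which were other dogs. The young dogs carry no disease label. Age and disease status therefore cannot be told apart in either tissue, or in the difference between tissues in this age effect. In capsule, a tissue in which 38.4% of 12589 genes were called between these ages, the gene had a fold of 0.978 in adult controls over young dogs, with an interval of 0.71 to 1.35 (log2 fold change -0.03, SE 0.22, edgeR adjusted p = 0.92). Of all genes tested there, 3.93% had a smaller absolute log2 fold change. Adult control capsules at 510 to 915 CPM lay within the young range of 519 to 1070 CPM apart from the lowest library.

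In ligament the level in adult controls was 0.622-fold that of young dogs, with an interval of 0.395 to 0.979 (log2 fold change -0.68, SE 0.29). The unadjusted p was 0.042 and the edgeR adjusted p was 0.17, so the gene was not among the 10.3% of 12701 genes called. Controls at 671 and 595 CPM lay below all young ligaments, whose lowest was 1030 CPM, and control replicate 2 at 1270 CPM lay inside the young range. The two-sided exact permutation test on log2 CPM gave p = 0.0857, where the smallest possible with 3 against 4 libraries is 0.0571. Without control replicate 2 the log2 fold change was -1.09 and the gene was called (edgeR adjusted p = 0.039). Over all settings the adjusted p ran from 0.039 to 0.43, and without control replicate 3 the log2 fold change was -0.5.

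The difference between tissues in this age effect did not pass either. The ratio of the adult over young fold in ligament to that in capsule was 0.644, with an interval of 0.379 to 1.09 (interaction log2 -0.63, SE 0.37, edgeR adjusted p = 0.41), and the term called 0.0369% of 13548 genes. That is 5 genes, against 104 with DESeq2, 149 with the dog as a random block and 715 without control ligament replicate 3. In the limma voom fit with that block the term for this gene was -0.76 (unadjusted p = 0.016, adjusted p = 0.13). Without control ligament replicate 2 it was -1.04 (unadjusted p = 0.0095, edgeR adjusted p = 0.52).

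Within affected ligaments, adults and dogs aged 4 months overlapped closely. Adults had 1090, 745, 831 and 682 CPM, against 1130, 588 and 699 CPM at 4 months. The fold was 1.05, with an interval of 0.684 to 1.63 (log2 fold change 0.08, SE 0.28, edgeR adjusted p = 0.88), in a comparison that called 14.6% of 12619 genes. Along the ages sampled in ligament, the mean was 1360 CPM under 1 month, 804 ± 284 CPM in affected dogs at 4 months (SD, n = 3) and 836 ± 178 CPM in affected adults (n = 4). No unaffected dog of 4 months was sampled.

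Both tissues were available from 7 dogs, which removes differences between dogs from the tissue comparison. The choice of the gene used its level in ligament, so these values are a description. In young dogs, ligament and capsule had 1390 and 790 CPM in the first dog, 1030 and 519 CPM in the second, and 1550 and 654 CPM in the third. In affected dogs aged 4 months they had 1130 and 786 CPM, 588 and 423 CPM, and 699 and 714 CPM. In the adult control dog they had 671 and 583 CPM. Ligament was higher in 6 of the 7 dogs, and nearly level with capsule in the other.

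The mean difference, ligament minus capsule, was 0.6 ± 0.45 on the log2 scale (SD, n = 7 dogs), a 1.52-fold higher level in ligament. It averaged 0.32 ± 0.31 in the 3 affected dogs aged 4 months and 1.02 ± 0.22 in the 3 young dogs. Every dog aged 4 months was affected and the young dogs carry no disease label, so age and disease cannot be told apart here. The largest difference among the dogs aged 4 months and the adult was 0.52 and the smallest among young dogs was 0.82, so that these did not overlap on TMM-scaled levels. On library totals without scaling they did overlap, with a difference of 1.01 in 1 dog aged 4 months and 0.86 in 1 young dog. Between all libraries of a stage, paired or not, the difference of mean log2 CPM was 0.46 in affected dogs, 0.29 in adult controls and 1 in young dogs.

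**Figure D3:**
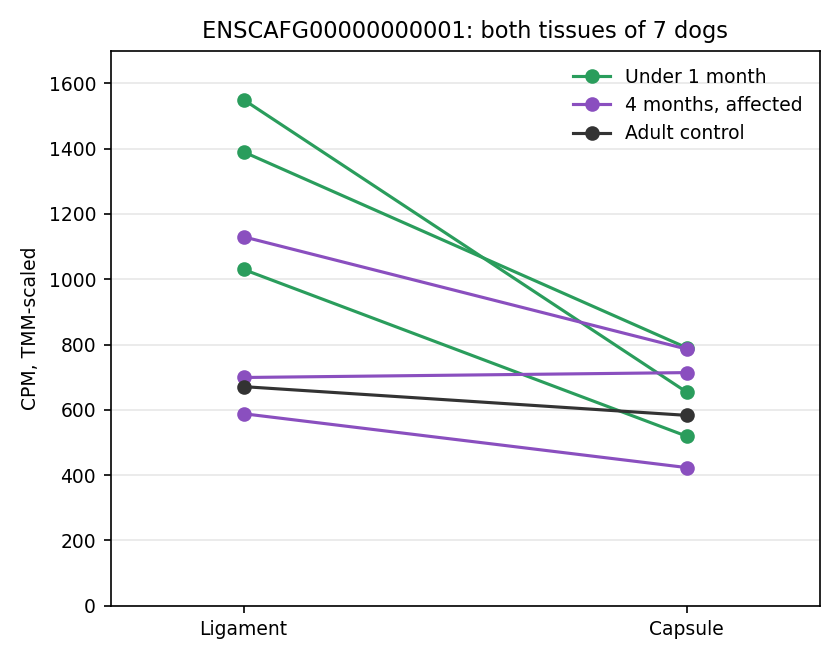
TMM-scaled CPM of ENSCAFG00000000001 in ligament (left) and capsule (right), with a line for each of the 7 dogs that gave both tissues. Lines of the 3 young dogs fall most steeply, with ligaments at 1030 to 1550 CPM and capsules at 519 to 790 CPM.

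Within groups, the gene varied about as much as others of like abundance. The SD of log2 CPM within groups, pooled over the 7 groups, was 0.37, and the median over the 500 genes nearest in mean level was 0.36. The coefficient of variation was 43.7% in control ligaments, the most variable group, and 11% in embryonic hip, the least variable. In embryonic hip the counting error was up to 4.79%, smaller than that variation of 11%.

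The genes whose levels over the 32 libraries were most like it were found by the Pearson correlation of log2 CPM among the other 14344 genes kept. The closest was ENSCAFG00000002447 (r = 0.95, Spearman rho = 0.87). It averaged 34.7 ± 12.5 CPM in affected ligaments, 39.2 ± 8.46 CPM in control ligaments and 52.5 ± 11 CPM in young ligaments, against 2.07 ± 0.337 CPM in embryonic hip. It too was highest in young ligament and lowest in embryo. With the group means removed it still had r = 0.73, rank 4 among all genes, and over the 29 postnatal libraries alone it had r = 0.82, the highest of all genes.

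The next was ENSCAFG00000002301 (r = 0.94, rho = 0.71). It averaged 423 ± 89.3 CPM in affected, 551 ± 290 CPM in control and 367 ± 44.1 CPM in young ligaments, against 19.1 ± 1.01 CPM in embryonic hip. Its highest group was control ligament, not young ligament, and its r over the postnatal libraries was 0.6. In all, 17 genes had r over 0.9. These correlations share libraries, scaling and the gap between embryonic and postnatal tissue, and are a description.

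The most opposite genes were ENSCAFG00000008652 (r = -0.92, rho = -0.77) and ENSCAFG00000007251 (r = -0.92, rho = -0.64). ENSCAFG00000008652 lay between 0.591 and 6.12 CPM in postnatal libraries and averaged 30.1 ± 4.6 CPM in embryonic hip. ENSCAFG00000007251 had 7 fragments over all postnatal libraries, 24 of which held none, and 3381 fragments over the 3 embryonic ones, at 156 ± 12.8 CPM. Over postnatal libraries alone their r was -0.73 and -0.42.

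**Figure D4:**
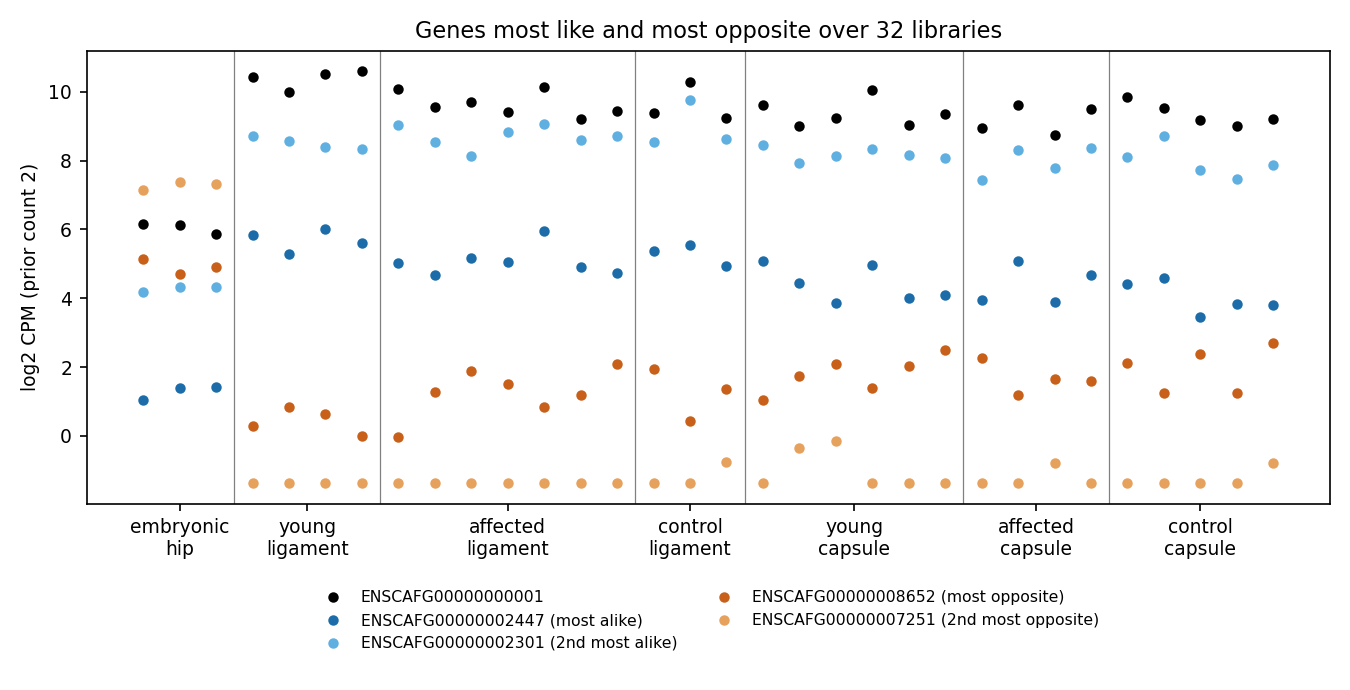
log2 CPM (prior count of 2) in each of the 32 libraries, grouped by tissue and stage, of ENSCAFG00000000001 (black), the 2 genes most like it (blue) and the 2 most opposite (orange). Within each gene, the blue and black points are lower in the 3 embryonic libraries than in all others, and the orange points run the other way.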

How the data were processed

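Ribosomal RNA-depleted, strand-specific libraries were made from Trizol RNA, per the labels' protocols. The submitters' processing notes name the canFam3 build and cutadapt 1.8, Bowtie2 2.2, TopHat2 2.0.13 and Cuffdiff 2.2.1. What each tool did, the gene annotation and whether counting used strand: not given in the sources used here. Per the file headers, the authors deposited 3 values for a gene in a library, namely an estimated count of fragments without scaling, a scaled fragment signal and FPKM. The scaled signal entered none of the results given here. Of the estimated counts the authors deposited, 0.332% were not whole (by more than 1e-06), none of them in this gene, and all were rounded before testing.

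Each comparison was tested on the libraries of its groups with edgeR 4.0.16 in R 4.3.3 (filterByExpr, TMM, robust quasi-likelihood F test, Benjamini-Hochberg adjustment over all genes tested), and called at an adjusted p under 0.05. Intervals for folds use the t distribution with the degrees of freedom of that test. Alternatives used DESeq2 1.42.0, limma 3.58.1 on FPKM (pseudocount of 1 or 0.1), voom with library weights or a dog block, other scalings, the replicate number as a block and each library left out. The functions were tested on simulated data. By the dog identifiers in the labels, no dog gave a group more than 1 library. The gene was chosen, and the comparisons set, with earlier results of these data known. Genes like it were named as the 2 with the highest and the 2 with the lowest Pearson r of log2 CPM (prior count of 2) over the 32 libraries. Lists of matrix, mineralization and cell type marker genes, set by symbol, could not be used since the reference table paired no ID with a symbol. IDs of near-identical or overlapping genes could not be recognised.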

Additional observations from a re-analysis of the deposited data

How the results depend on the processing

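Across 245 alternative settings, 211 kept direction and side of the threshold (or, for levels, moved by less than 1 SD). Library totals without scaling moved the median of all genes by -0.29 to 0.25 (log2) and gave 14.2 in place of 20.5 for young ligament over embryonic hip. Log2 fold changes near 0 turned in sign, and the cause was not tested. Affected over control ligament was 8.5e-05, but -0.11 on library totals, -0.018 unfiltered, -0.0074 in DESeq2, -0.12 in weighted voom and -0.025 with all 32 libraries. Adult affected over control ligament was 0.036, but -0.2 on totals and -0.11 in weighted voom. Adult control over young capsule was -0.032, but 0.13 on totals and 0.0044 in weighted voom. Adult over 4-month affected ligament was 0.076, but -0.21 on totals, and the disease interaction 0.12, but -0.12 in weighted voom. None was called.

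With 1 library left out, values ran from -0.28 to 0.0041 for affected over control capsule, -0.19 to 0.4 for affected over control ligament, -0.16 to 0.43 for adult ligaments, -0.18 to 0.13 for adult control over young capsule, -1.09 to -0.5 in ligament (called without control replicate 2), -0.099 to 0.41 for adult over 4-month affected ligament and -0.07 to 0.53 for the disease interaction.

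Within a tissue, replicate numbers did not pair the samples, which came from different dogs (deviations correlated at -0.32 to 0.49, and best with the own number in 3 of 15 cases). Across tissues, young ligament and young capsule replicates 1 came from 1 dog, and replicates 2 from another. The age interaction was therefore partly paired by number, which the check within a tissue did not cover. With the replicate number as a block, values were -0.19 for affected over control capsule, 0.19 in both ligament comparisons, -0.67 for adult control over young ligament and -0.6 for the age interaction, none called. It could not be fitted between adult and 4-month affected ligaments, which share no number. Calls over all genes ran from 2 to 138 for affected over control capsule (30 as reported), 0 to 260 and 0 to 1850 in the ligament case comparisons (0 each), 617 to 2061 for adult control over young ligament (1310), 549 to 2686 within affected ligaments (1841) and 0 to 715 for the age interaction (5).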
